A study of Mus musculus with 8 samples.

Results

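The sheaths and fibres of the sperm tail are represented here by 10 genes. Their products are grouped here as 6 proteins of the fibrous sheath (Akap3, Akap4, Ropn1, Ropn1l, Fsip1 and Fsip2) and 2 of the outer dense fibres (Odf1 and Odf2). The other 2 (Smcp and Spata18) are grouped with the mitochondrial sheath. The genes were picked by symbol for these structures. No measured value enters the rule, but earlier results of these data were known when the genes were picked. All 10 were found among the 56748 genes of the count table and all 10 passed the filter on low counts, which left 21952 genes to test. RNA was sequenced from adult mouse testis in 8 libraries, 4 from mice labelled Ssty2-/- (Ssty2 knockout) and 4 labelled WT (wild type). The labels name no strain, no age beyond adult, no other allele and no treatment, and they do not state that the libraries of a group came from separate animals. The question put to the libraries was which testis transcripts differ in level when Ssty2, a spermatid gene with many copies on the long arm of the mouse Y chromosome, is missing.

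The mammalian sperm tail carries accessory structures around its axoneme. In the midpiece, mitochondria are wound into a helical sheath over the outer dense fibres, which are stiff keratin-like cables. Beyond the annulus, the septin ring that closes the midpiece, the fibrous sheath encloses the principal piece and serves as a scaffold for protein kinase A and for glycolytic enzymes. Their genes are transcribed in haploid spermatids, before transcription stops, and several of the messages are stored for later translation.

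Total counts ran from 18036708 to 22639737 in the knockout libraries and from 18763650 to 24415587 in the wild-type libraries. Ssty2 (ENSMUSG00000095302) had 0 counts in each of the 4 knockout libraries, against 56, 78, 83 and 45 counts in the wild-type libraries. Against a limit of 3 counts over the knockout group it was at least 76.2-fold lower. Ssty2 was not the only Y-linked gene with few or no counts there: Sly, which also lies in many copies on that arm, had 1 count in the knockout libraries and 796 in the wild-type libraries. The groups differ in both genes, so a difference tied to Ssty2 and one tied to Sly cannot be told apart here. Whether this also holds for other genes of that arm, or for other copies of Ssty2, was not examined. Levels are given as CPM, counts relative to the library total after TMM scaling (edgeR's trimmed mean of M-values). P-values are from edgeR's quasi-likelihood test with Benjamini-Hochberg adjustment across all tested genes, and a gene was called at an adjusted p under 0.05.

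Each of the 10 genes was higher in the knockout libraries under this scaling, by 1.15-fold for Fsip2 to 1.62-fold for Akap4, and none was lower; scaled instead to the sum of 12 round spermatid markers, 1 of the 10 was called higher and 3 lower, against 4.88% higher and 66.7% lower of all tested genes. The median log2 fold change of the 10 genes was 0.46, against -0.01 over all tested genes. That comparator varied with length: the median was 0.25 for tested genes with under 1.5 kb of exons (quartiles -0.15 and 0.61). Ropn1l at 0.28, Ropn1 at 0.42, Odf1 at 0.55 and Smcp at 0.56 are that short and lay between 0.25 and 0.61. The longer members each lay above the upper quartile of their length class, where medians ran from -0.12 to 0.02. The part of length in the members' differences was not tested. Calls were common in these data: 26.2% of all tested genes were called higher and 27.4% lower, 53.5% in all. The groups of libraries did not overlap for 9 of the 10 genes, with the knockout above the wild type, which held for 22.7% of all tested genes. The share of tested genes with a larger log2 fold change was 9.72% for Akap4, 12.5% for Spata18, 13.6% for Smcp, 13.8% for Odf1 and 16.9% for Odf2. It lay between 19.4% for Fsip1 and 33.6% for Fsip2 for the other members. Together the 10 genes took 1.30%, 1.32%, 1.28% and 1.28% of all counts in the knockout libraries, against 1.05%, 0.948%, 0.997% and 1.02% in the wild-type libraries. In whole testis, a larger share of the cells that express a gene and more RNA per cell cannot be told apart.

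**Figure D1:**
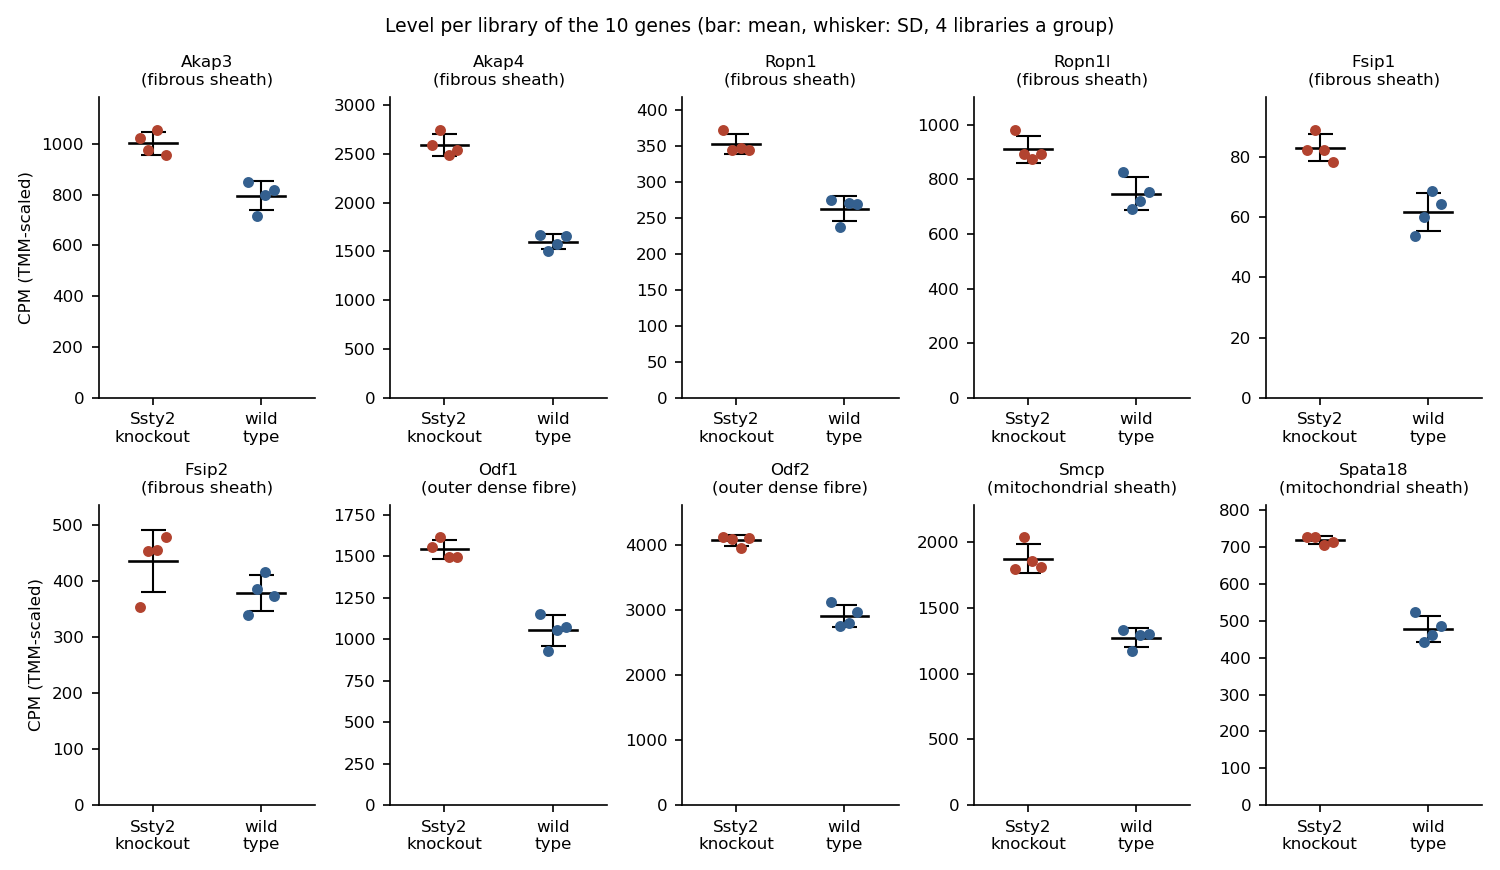
Level of the 10 genes in each library, in TMM-scaled CPM on axes that start at 0, with Ssty2 knockout at the left and wild type at the right of each panel; points are libraries, bars are means and whiskers are SD (n = 4 each). The groups are separate in every panel except that of Fsip2, where knockout library 1 at 354 CPM lies among the wild-type libraries. Groups were separate with knockout higher for 22.7% of all tested genes.

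Akap3 and Akap4 are A-kinase anchoring proteins that bind the regulatory subunits of protein kinase A, and Akap4 is the most abundant protein of the fibrous sheath in mouse. The 250 bases before their annotated starts are shown because these 2 windows shared a stretch that no other window among the members did. The sequences are RefSeq's on GRCm38.p6, a build other than that of the counts, at chr6:126852848-126853097 for Akap3 and chrX:7067265-7067514 for Akap4, both on the plus strand. They are written 5′ to 3′ up to the base before the start, with the shared stretch in capitals.
Akap3: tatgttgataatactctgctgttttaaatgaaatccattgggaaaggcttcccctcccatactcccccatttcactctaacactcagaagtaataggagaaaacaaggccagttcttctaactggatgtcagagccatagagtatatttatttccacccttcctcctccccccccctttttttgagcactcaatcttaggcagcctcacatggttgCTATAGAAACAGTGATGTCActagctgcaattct
Akap4: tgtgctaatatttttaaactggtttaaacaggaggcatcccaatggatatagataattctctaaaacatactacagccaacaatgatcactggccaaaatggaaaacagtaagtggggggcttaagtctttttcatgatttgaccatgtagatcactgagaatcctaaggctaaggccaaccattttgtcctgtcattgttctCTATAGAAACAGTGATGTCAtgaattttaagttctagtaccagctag
The stretch is 20 bases long, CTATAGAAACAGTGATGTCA, and begins 34 bases before the start in Akap3 and 47 bases before it in Akap4. It was found in 2 of the 32851 windows of the RefSeq table, which are these 2. Among the 59 pairs of windows from different members, the next longest shared stretch had 11 bases and the median was 8 bases. It was noticed when the windows were compared and was not chosen beforehand, and a match of letters is a description, not a site.

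Windows were in the table for 8 of the 10 members (12 windows, since Akap4 has 2 and Odf2 has 4). Of 4 words searched on both strands, the full cyclic AMP response element TGACGTCA was in 0 of the 12 windows and in 1.55% of all windows. Its shorter form TGACGT, which the full element contains, was in 1 window, that of Spata18, and in 6.47% of all windows. The word GTTGCC, a core of the X-box bound by RFX factors, was in the window of Ropn1l and in 10.4% of all windows. The word TATAAA was in 0 of the 12 windows and in 12.4% of all windows. The stretch shared by Akap3 and Akap4 ends in TGATGTCA, and 2.93% of all windows held that word. TGATGTCA was added to the search after the windows had been read.

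Akap4 (ENSMUSG00000050089), on the X chromosome, showed the largest difference of the 10 genes. It had 2594, 2747, 2487 and 2536 CPM in the knockout libraries, against 1666, 1508, 1572 and 1654 CPM in the wild-type libraries. The lowest knockout library lay 821 CPM above the highest wild-type library. Its mean was 2591 ± 113 CPM in knockout and 1599.9 ± 74.1 CPM in wild type (SD, n = 4 each), and the log2 fold change was 0.70 ± 0.051 (SE; adjusted p = 2.99e-08). X-linked genes moved to both sides in these libraries: of 836 tested, 36.4% were higher and 41.1% lower, with a median log2 fold change of -0.24, against 25.9% and 27% of 20515 autosomal genes.

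Akap3 (ENSMUSG00000030344), on chromosome 6, had 1023, 977, 1057 and 955 CPM in the knockout libraries, against 852, 716, 799 and 817 CPM in the wild-type libraries. All knockout libraries were above all wild-type libraries, but the distance was smaller than for Akap4. The log2 fold change was 0.33 ± 0.058 (adjusted p = 0.000147). The ratio of Akap4 to Akap3 counts, in which the scaling of the library cancels, was 2.54, 2.81, 2.35 and 2.65 in the knockout libraries, against 1.96, 2.11, 1.97 and 2.02 in the wild-type libraries. The ratio did not overlap between groups and its log2 difference was 0.36. The two-sided exact permutation test gave p = 0.0286, the smallest that 4 against 4 libraries allow, and adjusted p = 0.0714 over the 5 ratios compared, so it did not pass after adjustment. At that limit the adjusted p depends on how many other ratios also reach it. Not passing is therefore no sign that the ratio was equal between groups.

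Ropn1 and Ropn1l encode ropporins, small proteins with a dimerization and docking domain like that of protein kinase A regulatory subunits, through which they bind AKAP3. Ropn1 (ENSMUSG00000022832, chromosome 16) had 373, 345, 347 and 345 CPM in the knockout libraries, against 275, 237, 271 and 269.9 CPM in the wild-type libraries. Knockout library 1 stood above the other knockout libraries and wild-type library 2 below the other wild-type libraries, and the groups were 69.9 CPM apart at their nearest. The log2 fold change was 0.42 ± 0.056 (adjusted p = 1.28e-05). Ropn1l (ENSMUSG00000022236, chromosome 15) had 982, 892, 874 and 892 CPM in the knockout libraries, against 827, 690.0, 721 and 754 CPM in the wild-type libraries. Its groups were also separate, with a log2 fold change of 0.28 ± 0.060 (adjusted p = 0.000838). The ratio of Ropn1 to Ropn1l was 0.380, 0.387, 0.398 and 0.386 in the knockout libraries, against 0.332, 0.344, 0.376 and 0.358 in the wild-type libraries. These did not overlap either, with a log2 difference of 0.14 (exact permutation p = 0.0286, adjusted p = 0.0714).

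Fsip1 and Fsip2 were identified as proteins that interact with AKAP4, and loss of FSIP2 in humans gives malformed sperm tails. Fsip1 (ENSMUSG00000027344, chromosome 2) had 82.4, 89.2, 82.5 and 78.4 CPM in the knockout libraries, against 53.9, 60.0, 68.8 and 64.4 CPM in the wild-type libraries. The groups were separate, and the log2 fold change was 0.43 ± 0.073 (adjusted p = 0.000132). An exon of Fsip1 overlaps 133 bases of Gm29232 on the same strand, so that 3.58% of its 31-base words are shared and a few of its reads could have been counted elsewhere or dropped.

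Fsip2 (ENSMUSG00000075249, chromosome 2) had 354, 455, 456 and 479.5 CPM in the knockout libraries, against 339, 386, 417 and 374 CPM in the wild-type libraries. It was the member whose groups overlapped: knockout library 1 lay below 3 of the 4 wild-type libraries, while the other knockout libraries lay above all of them. The log2 fold change was 0.20 ± 0.082 (adjusted p = 0.046). The call ended when knockout library 2, 3 or 4 or wild-type library 1, 2 or 4 was left out, with adjusted p of 0.103, 0.0982, 0.143, 0.156, 0.0801 and 0.0966 in that order. It was kept without knockout library 1, at 0.29 (adjusted p = 0.000976), and without wild-type library 3, at 0.25 (adjusted p = 0.0277). With libraries scaled by their totals the difference was 0.06 (adjusted p = 0.559). Fsip2 is the longest member, with a principal transcript of 21.116 kb. Genes with over 10 kb of exons took 9.81%, 10.3%, 10.5% and 10.3% of counts in the knockout libraries, against 10.6%, 11.2%, 10.8% and 10.5% in the wild-type libraries (exact permutation p = 0.0571), and the part of this in the Fsip2 values was not tested. The ratio of Fsip1 to Fsip2 was 0.192 in knockout and 0.163 in wild type as geometric means, with a log2 difference of 0.23 (exact permutation p = 0.0857, adjusted p = 0.143), and its groups overlapped.

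Odf1 and Odf2 are the main proteins of the outer dense fibres. Odf1 is a cysteine-rich protein that also helps hold the tail to the head, and Odf2 forms the fibre cables and, in other isoforms, appendages of the centriole. Odf1 (ENSMUSG00000061923, chromosome 15) had 1557, 1617, 1498 and 1496 CPM in the knockout libraries, against 1152, 929, 1055 and 1072 CPM in the wild-type libraries. The lowest knockout library was 343 CPM above the highest wild-type library, and the log2 fold change was 0.55 ± 0.060 (adjusted p = 1.8e-06). Odf2 (ENSMUSG00000026790, chromosome 2) had 4132, 4106, 3959 and 4118 CPM in the knockout libraries, against 3127, 2753, 2801 and 2967 CPM in the wild-type libraries. It held more counts than any other member in all 8 libraries. Its log2 fold change was 0.49 ± 0.051 (adjusted p = 1.09e-06). The ratio of Odf1 to Odf2 was 0.378 in knockout and 0.361 in wild type, a log2 difference of 0.07 that did not pass the test (exact permutation p = 0.143, adjusted p = 0.179). A small nuclear RNA gene, Gm23865, overlaps 97 bases of Odf2 exons on the opposite strand, and 1.44% of the 31-base words of Odf2 are shared with other genes; apart from Fsip1 and Odf2, the members shared 0% of theirs.

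Smcp encodes a cysteine-rich protein of the capsule around sperm mitochondria, and its mRNA is a known example of a message stored untranslated in mouse spermatids. Smcp (ENSMUSG00000074435, chromosome 3) had 1798, 2043, 1859 and 1811 CPM in the knockout libraries, against 1336, 1173, 1295 and 1299.6 CPM in the wild-type libraries. The groups were 462 CPM apart at their nearest, and the log2 fold change was 0.56 ± 0.056 (adjusted p = 7.62e-07). Spata18, also called Mieap, encodes a mitochondrial quality control protein and is grouped here with the mitochondrial sheath. Spata18 (ENSMUSG00000029155, chromosome 5) had 728, 727, 707 and 715 CPM in the knockout libraries, against 524, 442, 462 and 487 CPM in the wild-type libraries. Its log2 fold change was 0.59 ± 0.054 (adjusted p = 3.17e-07), the second largest of the 10 genes. The ratio of Smcp to Spata18 was 2.61 in knockout and 2.67 in wild type (log2 difference -0.03, exact permutation p = 0.486). Transcripts encoded by the mitochondria themselves went the other way as a share of counts, with 0.727% ± 0.0447 in knockout and 1.20% ± 0.133 in wild type (SD, n = 4 each; exact permutation p = 0.0286).

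**Figure D2:**
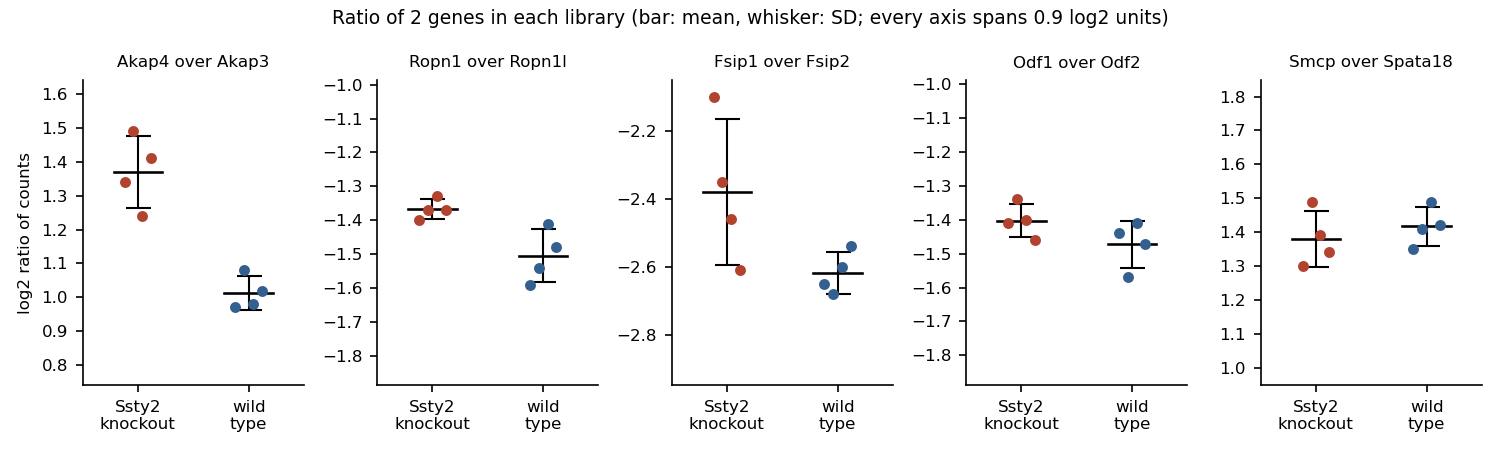
Log2 ratio of the counts of 2 genes in each library for 5 pairs, with Ssty2 knockout at the left and wild type at the right; points are libraries, bars are means, whiskers are SD (n = 4 each) and every axis spans the same range. The groups are separate for Akap4 over Akap3 and for Ropn1 over Ropn1l and overlap for the other 3 pairs. No pair passed after adjustment over the 5. The separate pairs already had the smallest p that 4 against 4 libraries allow, so a larger difference would not have lowered it.

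Replicate libraries agreed closely for most members. The coefficient of variation ran from 1.38% for Spata18 to 12.8% for Fsip2 in knockout, and from 4.63% for Akap4 to 10.3% for Fsip1 in wild type. Only Akap4 and Spata18 differed by at least 1.5-fold, a size that 11.3% of all tested genes passed upwards with a call.

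Per length of the principal transcript, the order of the members was nearly the same in both groups. Smcp was highest, with 2181 ± 131 CPM per kb in knockout and 1482 ± 82.6 CPM per kb in wild type. Odf2 followed with 1665 ± 33.0 and Odf1 with 1395 ± 52.0 CPM per kb in knockout, against 1189 ± 69.5 for Odf2 and 952 ± 83.5 for Odf1 in wild type. Ropn1l and Akap4 came next, with 951 ± 51.0 and 909 ± 39.6 CPM per kb in knockout, against 782 ± 61.5 and 561 ± 26.0 CPM per kb in wild type. These 2 neighbours overlapped over the knockout libraries and were separate over the wild-type libraries. Ropn1 stood at 403 ± 15.7 CPM per kb in knockout and 301 ± 19.8 CPM per kb in wild type. Spata18 was above Akap3 in knockout, at 364 ± 5.01 and 318 ± 14.4 CPM per kb, whereas they overlapped in wild type at 242 ± 17.8 and 252 ± 18.4 CPM per kb. In wild type Odf1 and Ropn1l overlapped as well. Fsip1, with 49.7 ± 2.66 in knockout and 36.9 ± 3.80 in wild type, and Fsip2, with 20.6 ± 2.63 in knockout and 17.9 ± 1.52 in wild type, were far below the rest. The order depends on the length used. Over all annotated exons Odf2 had 411 CPM per kb in knockout and 294 CPM per kb in wild type. Ropn1 then had 262 CPM per kb in knockout and 196 CPM per kb in wild type, below Spata18 and Akap3 in both groups. Fsip1 had 28.6 CPM per kb in knockout and 21.2 CPM per kb in wild type, still above Fsip2.

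The size of each difference depends on what is held constant between libraries. Library totals as the scale moved the median log2 fold change of all tested genes to -0.15, and of all calls 31.8% were then upward, against 48.9% under TMM. The members shifted with it and ranged from 0.06 for Fsip2 to 0.55 for Akap4, and 9 of the 10 were called higher, while 17.5% of all tested genes were called higher and 37.6% lower. When libraries were scaled to the summed counts of 12 round spermatid markers, the median of all tested genes moved to -0.54, and 4.88% of tested genes were called higher and 66.7% lower. Under that scale Akap4 alone of the 10 was called higher, at 0.16 ± 0.053 (adjusted p = 0.010). Spata18 at 0.06, Smcp at 0.02, Odf1 at 0.02, Odf2 at -0.05, Ropn1 at -0.11 and Fsip1 at -0.11 did not pass, and Akap3 at -0.20, Ropn1l at -0.25 and Fsip2 at -0.33 were called lower. Against the median of all tested genes, the members stood 0.21 to 0.71 higher on the log2 scale under this setting and 0.21 to 0.70 higher under TMM. A change of scale moves every gene and the median by nearly the same amount. This distance therefore stays nearly fixed by construction and is no test of the members' differences.

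**Figure D3:**
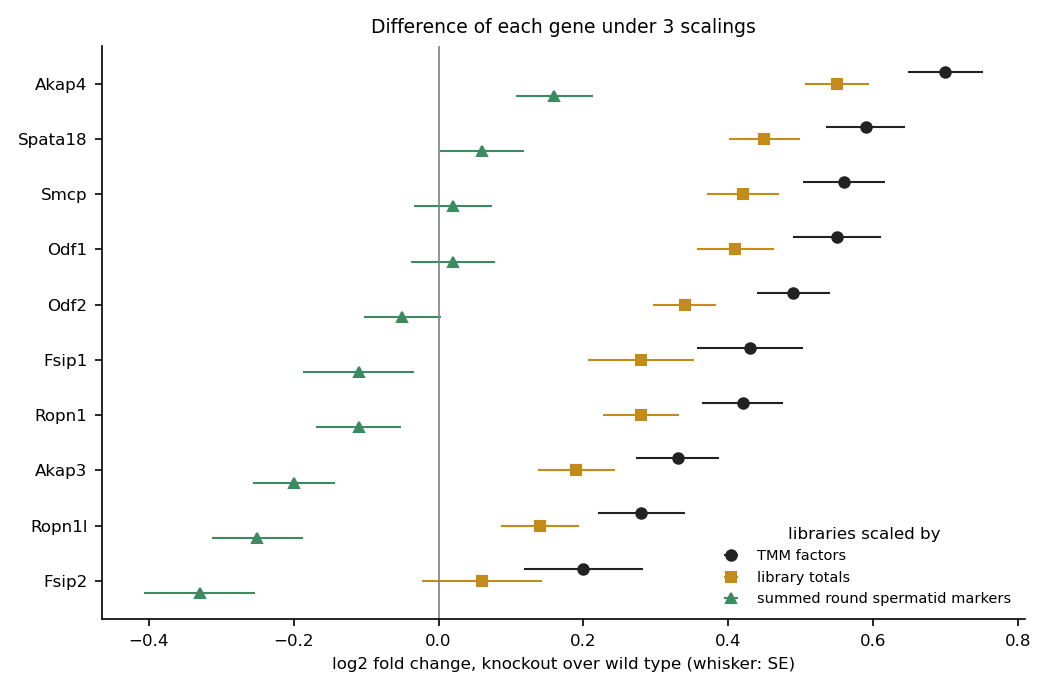
Log2 fold change of each gene, knockout over wild type, with libraries scaled by TMM factors, by their totals or by the sum of 12 round spermatid markers; whiskers are SE. Under TMM the 10 genes lie between 0.20 and 0.70, under library totals between 0.06 and 0.55, and on the round spermatid scale between -0.33 and 0.16, on both sides of 0.

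Markers of the cells that make up the testis also moved under TMM scaling, the spermatid lists in the direction of the members and most other lists the other way. All 12 round spermatid markers were called higher, against 26.2% of all tested genes. Their summed level was 3237 to 3357 CPM in knockout and 2147 to 2381 CPM in wild type, and their median log2 fold change was 0.50. Of 10 elongating spermatid markers 9 were higher, with a summed level of 16269.9 to 19184 CPM in knockout and 10531 to 13370.2 CPM in wild type and a median of 0.62. The 10 members summed to 139% to 146% of the wild-type mean in the knockout libraries, and the round spermatid markers to 141% to 146%. Of the earlier germ cells, 6 of 10 spermatocyte markers and 9 of 11 spermatogonial markers were lower, against 27.4% of all tested genes. A spermatogonial marker, Gfra1, was called higher, at a log2 fold change of 0.47 (adjusted p = 0.00206), with no overlap between groups. Of the somatic cells, 10 of 11 Sertoli cell markers, 8 of 8 Leydig cell markers, 4 of 5 peritubular myoid markers and 3 of 5 macrophage markers were lower. Leydig cell markers summed to 928 to 1033 CPM in knockout and 1787 to 2066 CPM in wild type. No endothelial or erythroid marker was higher (1 of 4 and 0 of 3 were lower), and 1 of 7 epididymal markers passed the filter, with no call. No marker of any list was at 0 in all libraries. The part of these shifts in the members' differences was not tested. Scaling to round spermatid markers only sets their summed counts equal between groups and is no such test.

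**Figure D4:**
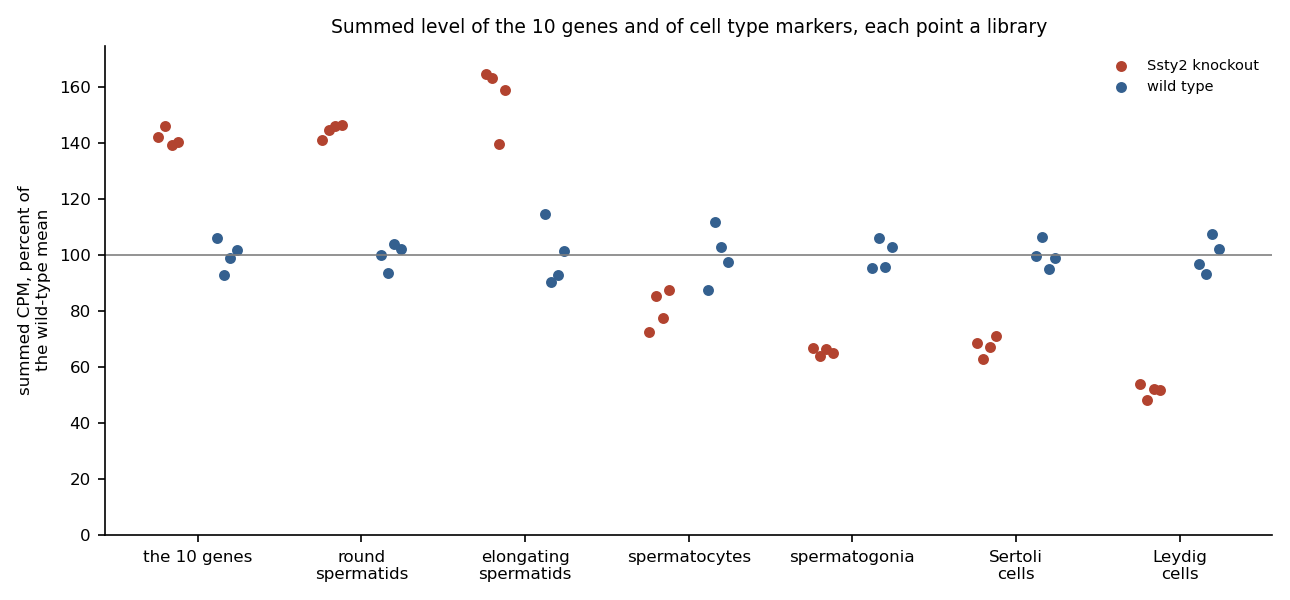
Summed CPM of the 10 genes and of 6 lists of cell type markers in each library, as a percentage of the wild-type mean of that sum, with Ssty2 knockout left of wild type in each list. The 10 genes and both spermatid lists lie at 139% or more in every knockout library, and spermatocyte, spermatogonial, Sertoli and Leydig cell markers lie at 87.6% or less.

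Other genes of the same structures gave counts in the same direction for most of their members under TMM scaling. Of 11 partners and enzymes of the fibrous sheath, 8 were higher and 0 lower, against 26.2% higher and 27.4% lower of all tested genes. Their median log2 fold change was 0.45, against -0.01 over all tested genes. On the round spermatid scale 1 was higher and 5 lower, against 4.88% and 66.7% of all tested genes. Akap14, an X-linked anchoring protein of the same class, had 33.5, 36.9, 43.1 and 39.0 CPM in the knockout libraries, against 11.3, 11.7, 12.7 and 13.5 CPM in the wild-type libraries. It was 3.10-fold higher, with a log2 fold change of 1.63 ± 0.091 (adjusted p = 1.26e-09), and stayed higher on the round spermatid scale at 1.10. Gapdhs, the sperm form of a glycolytic enzyme that is anchored to the sheath, rose by 0.49 on the log2 scale under TMM (adjusted p = 1.01e-06). Prkar2a, a regulatory subunit of protein kinase A, rose by 0.49 (adjusted p = 4.99e-06), and Spa17, which has a docking domain of the same kind, by 0.45 (adjusted p = 7.87e-06). The 3 that did not pass, named after their values were seen, were Rhpn1 at 0.13, Prkaca at 0.08 and Prkar1a at -0.06.

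Of 12 relatives and partners of the outer dense fibre proteins, 11 passed the filter (Odf3l2 did not). Of these, 8 were higher and 0 lower, with a median of 0.40, against 26.2% higher and 27.4% lower of all tested genes. On the round spermatid scale 0 were higher and 5 lower, against 4.88% and 66.7% of all tested genes. Cfap58, which is needed for assembly of the midpiece, rose by 0.61 on the log2 scale under TMM (adjusted p = 1.97e-07), and Spag4, which binds Odf1, by 0.54 (adjusted p = 1.05e-05). Tssk4, a kinase that acts on Odf2, rose by 0.51 (adjusted p = 2.03e-05) and Odf4 by 0.40 (adjusted p = 2e-05). The 3 that did not pass, also named after their values were seen, were Spag5 at 0.11, Odf3b at 0.08 and Odf2l at 0.02.

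Of 10 other mitochondrial sheath genes, 8 were higher and 1 lower, with a median of 0.18, against 26.2% higher and 27.4% lower of all tested genes. With library totals as the scale 4 were higher and 2 lower, against 17.5% and 37.6% of all tested genes. On the round spermatid scale 0 were higher and 9 lower, against 4.88% and 66.7%. Gykl1, a glycerol kinase needed for the order of sperm mitochondria, rose by 0.48 on the log2 scale under TMM (adjusted p = 1.46e-06). Spata19 and Armc12, both needed to form the sheath in mouse, each rose by 0.36 (adjusted p = 6.65e-05 for Spata19 and 0.000141 for Armc12). The gene that fell was Slc25a31, the germ cell carrier of ADP and ATP, known for its role in meiotic cells. It had 63.8, 76.1, 63.0 and 70.4 CPM in the knockout libraries, against 82.1, 102, 93.2 and 90.6 CPM in the wild-type libraries, and fell by 0.43 on the log2 scale (adjusted p = 0.00017).

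Of 6 genes of the annulus, 4 were higher and 2 lower, with a median of 0.33, against 26.2% higher and 27.4% lower of all tested genes. Sept4 and Sept12, the septins known for male germ cells, rose by 0.51 (adjusted p = 2.2e-06) and 0.32 (adjusted p = 0.000449) on the log2 scale under TMM. Dnajb13, a co-chaperone of the tail, rose by 0.38 (adjusted p = 3.49e-05), and Slc26a8, an anion transporter of the annulus, by 0.33 (adjusted p = 0.000213). Sept6 and Sept7, septins that many cell types express, fell by 0.61 (adjusted p = 7.96e-06) and 0.35 (adjusted p = 0.00859) on the log2 scale. X-linked Sept6 had 34.0, 33.3, 32.8 and 40.3 CPM in the knockout libraries, against 53.7, 58.4, 49.9 and 51.9 CPM in the wild-type libraries, with no overlap, whereas the libraries overlapped for Sept7. On the round spermatid scale 0 of the 6 annulus genes were higher and 5 lower, against 4.88% and 66.7% of all tested genes.

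**Figure D5:**
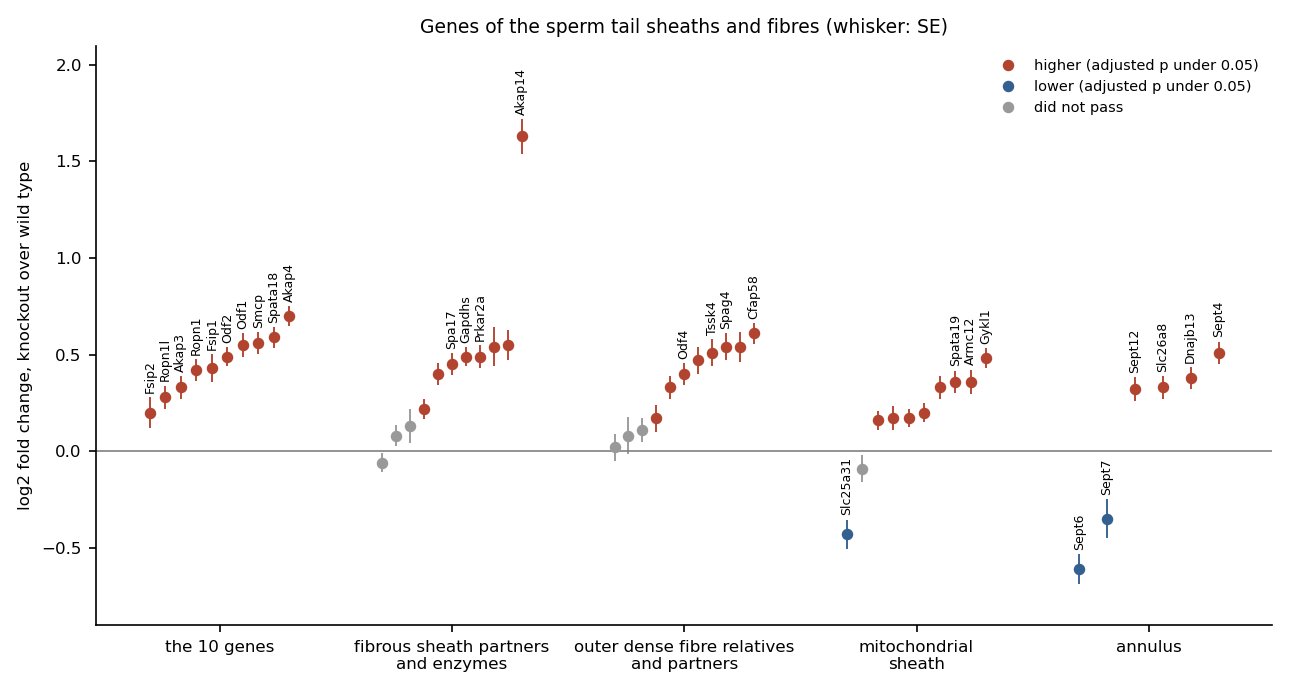
Log2 fold change, knockout over wild type, of the 10 genes and of 4 lists of other sperm tail genes under TMM scaling; points are genes, whiskers are SE and colours give the call. Most genes lie above 0 on this scale, Akap14 stands highest at 1.63, and Slc25a31, Sept6 and Sept7 are the called genes below 0. On the round spermatid scale 1 of the 10 genes, 1 fibrous sheath partner and no gene of the other lists were called higher. Called lower were 3 of the 10 genes, 5 fibrous sheath partners, 5 outer dense fibre relatives, 9 mitochondrial sheath genes and 5 annulus genes. Of all tested genes 4.88% were called higher and 66.7% lower on that scale.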

How the data were processed

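Per the labels, adult testis RNA was extracted with TRIzol, cleared of DNA and sequenced from TruSeq libraries. The deposited values are raw counts for each Ensembl gene and library, without normalization by the authors. The submitters' processing notes name FastQC, Trimmomatic, STAR, featureCounts and DESeq2 with build mm39. For tool versions, annotation, strand setting and multi-mapping reads, the settings were not given in the sources used here.

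Names, chromosomes and exon lengths came from GENCODE vM21 (GRCm38), which named 52073 genes. Counts were tested with edgeR 4.0.16 (R 4.3.3): filterByExpr (minimum count 10, minimum total 15), TMM, quasi-likelihood test with genotype as the term, Benjamini-Hochberg adjustment. The test was checked on simulated counts in which few genes changed, which does not check the choice of scaling. The labels do not say that replicates are separate animals, so p-values measure the spread between libraries, which may be technical. Alternatives were other scalings, no filter, a replicate block, DESeq2 1.42.0, a 1.5-fold minimum and each library left out.

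The members, gene lists and ratios were chosen with earlier results of these data known. Named genes are the 10 members, Ssty2, the (up to 4) smallest-p genes per list, and every called gene of a direction with 5 or fewer calls; Sly, Gfra1 and the uncalled genes are named beyond this, after their values were seen. Promoter windows were read from a RefSeq table of 32851 windows; proteins were not compared.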

Additional observations from a re-analysis of the deposited data

Results flagged for a closer look

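In 6 of 66 groups of 4 libraries, 1 library stood apart from the other 3 by Dixon's ratio at its 95% critical value, and chance marks about 1 group in 20. Knockout library 1 was high for Ropn1, at 373 CPM against 345 to 347 CPM in the other knockout libraries. Knockout library 3 was low for Odf2, at 3959 CPM against 4106 to 4132 CPM in the others. Knockout library 4 was high for Sept6, at 40.3 CPM against 32.8 to 34.0 CPM in the others. Wild-type library 2 was low for 3 genes: Ropn1 at 237 CPM against 269.9 to 275 CPM in the other wild-type libraries, Gapdhs at 900.4 CPM against 998 to 1007 CPM, and Dnajb13 at 181 CPM against 207 to 210.1 CPM. Without wild-type library 2, each of these genes was still called, and so was Odf2 without knockout library 3.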

How the results depend on the processing

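Over DESeq2's size factors, DESeq2's own test, no filter on low counts and a replicate block, all 10 members stayed higher. Of all tested genes 26.7%, 25.5%, 13.9% and 26.9% were called higher in these settings, in that order. Deviations from the group mean correlated at 0.08, 0.022, 0.061 and 0.002 between same-numbered libraries, and at -0.066 to 0.041 between differently numbered ones. These values do not settle whether the numbers pair libraries. The labels do not state a pairing, so the main test was unpaired. With the block, 5915 genes were higher and 6203 lower in all, against 5744 and 6008 without it. Fsip2 had adjusted p = 0.0055 with the block, and its SE was 0.053 against 0.082 without it. With single libraries left out, 9 to 10 members were called higher, against 22.7% to 24.7% of all tested genes. Fsip2 then ran from 0.15 to 0.29 and was the member that lost its call. A minimum of 1.5-fold left 2 members, 1 fibrous sheath partner and 1 outer dense fibre relative higher. It left 0 mitochondrial sheath genes in either direction, and 0 annulus genes higher and 1 lower. Of all tested genes 11.3% were then called higher and 12.6% lower. Library totals left Fsip2 at 0.06, made 1 fibrous sheath partner lower, and gave 4 higher and 2 lower mitochondrial sheath genes. Under library totals 17.5% of all tested genes were called higher and 37.6% lower. The round spermatid scale left 1 member higher and 3 lower, against 4.88% higher and 66.7% lower of all tested genes. It gave 1 higher and 5 lower fibrous sheath partners, 0 and 5 outer dense fibre relatives, 0 and 9 mitochondrial sheath genes, and 0 and 5 annulus genes. Odf1 at 0.02, Smcp at 0.02 and Spata18 at 0.06 lost their calls on that scale. The sign turned for Akap3 (-0.20), Ropn1 (-0.11), Ropn1l (-0.25), Fsip1 (-0.11), Fsip2 (-0.33), Odf2 (-0.05), Spa17 (-0.09), Gapdhs (-0.05), Prkar2a (-0.04), Odf4 (-0.13), Tssk4 (-0.03), Spata19 (-0.17), Armc12 (-0.17), Gykl1 (-0.05), Sept4 (-0.02), Sept12 (-0.22), Slc26a8 (-0.20) and Dnajb13 (-0.15). These turns follow a shift common to all genes, whose median moved to -0.54. The members stood 0.21 to 0.71 above that median, against 0.21 to 0.70 under TMM. A change of scale leaves this distance nearly fixed for any gene, so it is no test of the members' differences. That scale sets the summed counts of 12 markers equal between groups by construction; the cause of the other changes was not tested. No ratio changed direction when a library was left out. An exact permutation test of 3 against 4 libraries cannot go below p = 0.0571. Counting error was small at these depths, and the spread between libraries limited the precision.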
